A study of Homo sapiens with 6 samples.

Results

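The metallothioneins and the genes that sense and move zinc with them are described here in ARPE-19, an established cell line that came from human retinal pigment epithelium (RPE), with and without a knockout of POLDIP2. They are 10 genes chosen by name, with no measured threshold, of 37902 genes in the deposited table: MT1E, MT1F, MT1G, MT1M, MT1X and MT2A, the transcription factor MTF1, and the transporters SLC30A1, SLC39A10 and SLC39A14. RNA of 3 biological replicates of wild type cells (WT) and 3 of the POLDIP2 KO line was sequenced, 6 libraries in 2 groups, all from cells under regular maintenance at day 3. To obtain the POLDIP2 KO line, ARPE-19 cells received CRISPR/Cas and a guide against the POLDIP2 coding sequence by lentivirus, were selected with puromycin and were expanded, so the line is a single selected population. No control line that went through transduction and selection is among these samples, so the knockout and that handling cannot be told apart.

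Metallothioneins are small proteins rich in cysteine that bind zinc and copper ions, buffer free zinc and can take up reactive oxygen species. MTF1 senses free zinc and, when zinc rises, binds metal response elements in promoters and switches on metallothionein genes and SLC30A1, which carries zinc out of the cell. Zinc transporters of the SLC30 (ZnT) family lower zinc in the cytosol, those of the SLC39 (ZIP) family raise it, and the RPE is known as a tissue rich in zinc.

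The metal response element is the stretch of promoter that ties these genes to zinc, so the upstream sequences of MT2A, the most abundant of them, of MT1X, whose level followed the replicate number most closely, and of the zinc exporter SLC30A1 are shown. They are the 250 bases before the start in the RefSeq promoter table (GRCh38.p14), 5′ to 3′ on the strand of the gene, at chr16:56608334-56608583 (+ strand) for MT2A, chr16:56682220-56682469 (+ strand) for MT1X and chr1:211579162-211579411 (- strand) for SLC30A1. Capitals mark the 7-base core of the element, TGCACNC or TGCGCNC, and on the other strand GNGTGCA or GNGCGCA.
MT2A: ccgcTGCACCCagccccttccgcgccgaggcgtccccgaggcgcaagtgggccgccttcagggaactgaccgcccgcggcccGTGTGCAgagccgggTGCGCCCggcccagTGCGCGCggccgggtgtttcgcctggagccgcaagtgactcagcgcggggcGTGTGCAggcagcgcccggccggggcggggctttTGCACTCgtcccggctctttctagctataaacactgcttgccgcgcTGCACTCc
MT1X: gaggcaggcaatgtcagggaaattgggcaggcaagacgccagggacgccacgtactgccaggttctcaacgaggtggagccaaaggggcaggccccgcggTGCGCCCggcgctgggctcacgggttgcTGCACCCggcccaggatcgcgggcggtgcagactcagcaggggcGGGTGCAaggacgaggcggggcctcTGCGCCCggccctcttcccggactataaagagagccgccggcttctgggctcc
SLC30A1: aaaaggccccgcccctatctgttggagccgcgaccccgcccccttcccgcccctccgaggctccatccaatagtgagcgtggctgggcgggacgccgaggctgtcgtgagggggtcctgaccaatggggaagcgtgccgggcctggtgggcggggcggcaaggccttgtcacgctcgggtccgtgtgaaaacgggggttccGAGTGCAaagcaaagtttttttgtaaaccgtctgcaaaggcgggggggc

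The core was found 7 times upstream of MT2A, 5 times on the strand of the gene and 2 times on the other, and 4 times upstream of MT1X, 3 times on the strand of the gene and 1 time on the other. No core overlapped another in these windows. SLC30A1 held 1 core, on the other strand, starting 49 bases before the start. Among all 35116 windows of this length 24.8% held at least 1 core, 0.370% at least 4 and 0.0313% at least 7. MTF1 and SLC39A10 (both of its windows) held 0. Of the metallothioneins outside the 10 genes, MT1H held 8 cores, MT1B 3 and MT4 3, and their transcripts were listed at 0 in all 6 libraries. A core is a match of letters and was not measured as a bound site. MT1E, MT1F, MT1G, MT1M and SLC39A14 have no entry in the promoter table used.

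**Figure D1:**
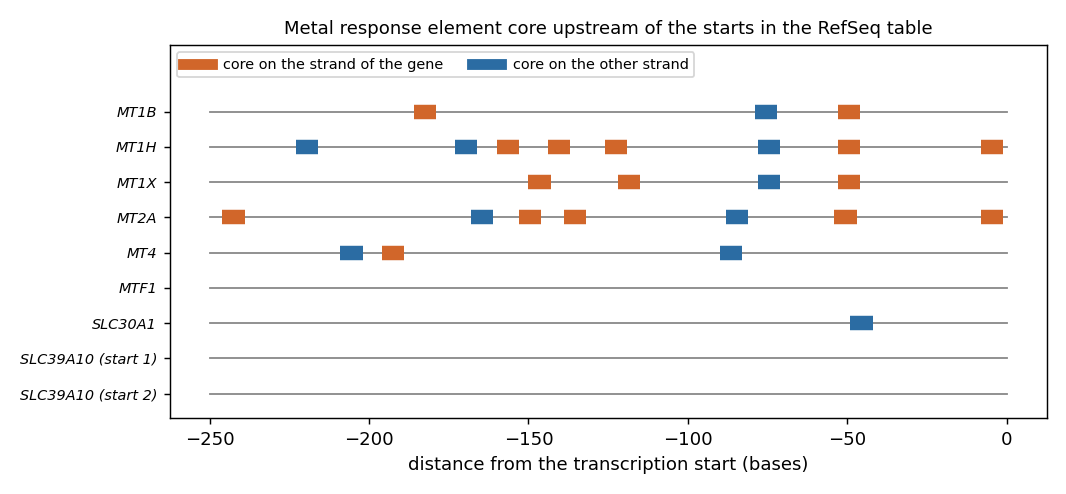
Cores of the metal response element (boxes) in the 250 bases before each start, with the distance from the transcription start in bases on the x axis and 1 line for each window of a metallothionein or member gene in the table. Orange boxes are on the strand of the gene and blue boxes on the other strand; MT2A holds 7, MT1X 4, SLC30A1 1, and MTF1 and SLC39A10 hold 0.

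The libraries held 31532797 to 45795509 recovered reads, and 3 reads correspond to 2.44 to 3.69 normalised counts. The target of the knockout was measured at 3919, 4827 and 4798 normalised counts in WT and at 1063, 1248 and 1143 in POLDIP2 KO, which matches the labels; its log2 fold change was -1.97, and limma gave an adjusted p of 0.00961. RPE65 and TTR, which mature RPE expresses, were at 0 in all libraries. MITF (2955 to 4503), OTX2 (574 to 883) and the epithelial keratin KRT8 (34222 to 48481) were present. Of 13 RPE markers 10 passed the filter on low values, and 0 were called. By limma 1 of 10 was past an unadjusted p of 0.05 (LRAT, log2 fold change -1.27), against 6.48% of all tested genes. LRAT and SERPINF1 were lower in POLDIP2 KO without overlap, 2 of 10 against 10.9% of all tested genes without overlap in either direction. The median log2 fold change of the 10 was -0.24. POLDIP2 KO replicate 1 stood apart in the fibroblast collagen COL1A2, at 614 normalised counts against 0 to 9.45 in the other libraries, and the 7 fibroblast markers, of which 5 passed the filter, summed to 6813, 2142 and 2963 in WT and 14359, 2086 and 4857 in POLDIP2 KO. In both lines this sum was highest in replicate 1, 0 of the 5 were called, COL1A1 had an adjusted p of 0.0436 with the numbers as a block, and the part of this in the results below was not tested. Summed endothelial markers were 39.7 to 199 in WT and 45.7 to 138 in POLDIP2 KO (2 of 5 tested), immune markers 1705 to 2219 and 1875 to 2158 (2 of 6, with CD3E at 0), and photoreceptor markers 368 to 472 and 265 to 336 (2 of 5), with 0 called in each.

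The first comparison asked whether any of the 10 genes differed between the lines. None of the 9 genes that passed a mean of 10 normalised counts was called at an adjusted p of 0.05 and a 1.5-fold change (limma, Benjamini-Hochberg over 14684 genes), where 0.170% of all tested genes were called, 12 higher and 13 lower. Of the 9, MT1F alone was past an unadjusted p of 0.05, and 6.48% of all tested genes were. In 0 of 9 were the 3 POLDIP2 KO libraries all above or all below the 3 WT libraries, against 10.9% of all tested genes. The median log2 fold change was -0.12 over the 9 genes and 0.00 over all tested genes. MT1G did not pass the filter. In bulk RNA, fewer cells that express a gene and less of its RNA per cell cannot be told apart.

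**Figure D2:**
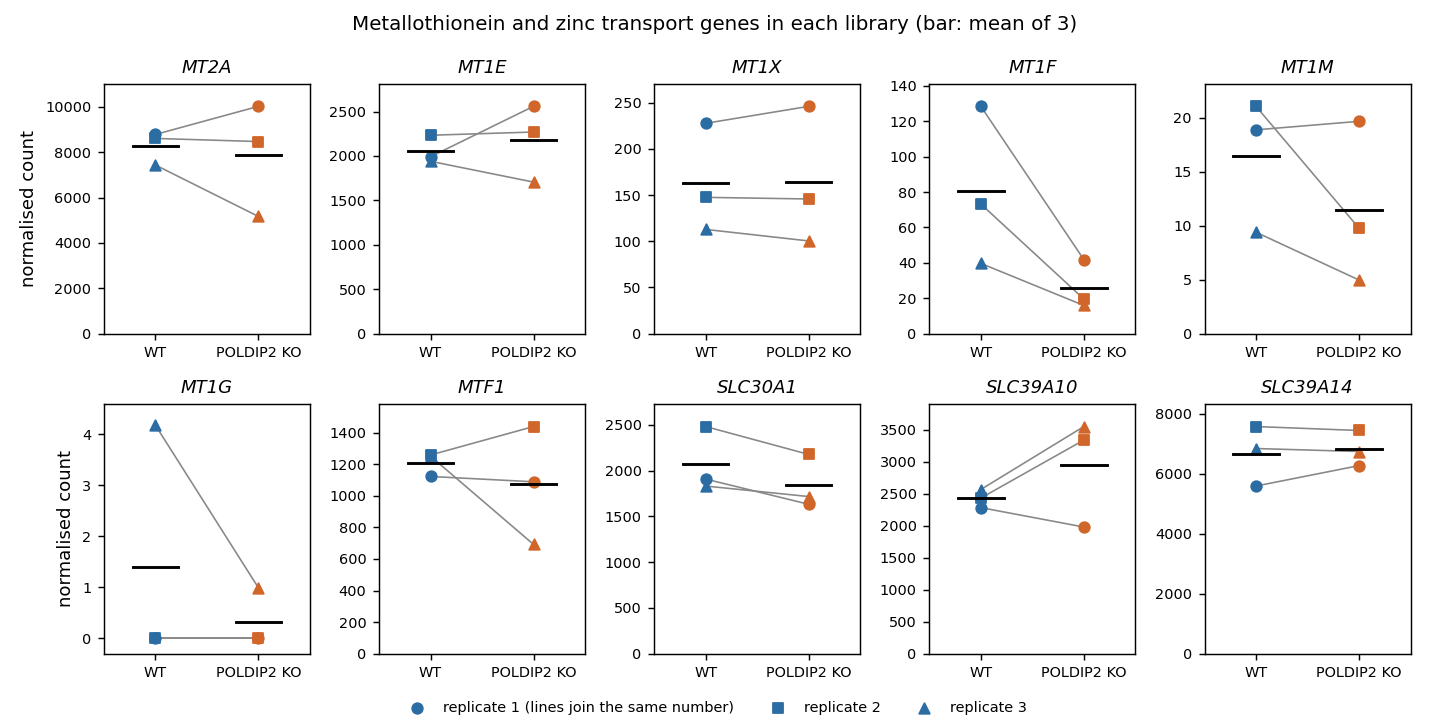
Normalised counts (y axis, from 0 except for MT1G, whose points at 0 are raised off the frame) of the 10 genes in the 3 WT (blue) and 3 POLDIP2 KO (orange) libraries, with bars at the mean of 3 and lines joining libraries with the same replicate number. MT1F is lower in POLDIP2 KO on each of its 3 lines, while the lines of MT2A, MT1E and MT1X run in both directions.

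MT2A, the main metallothionein of most human cells, was by far the most abundant. It was measured at 8781, 8606 and 7433 normalised counts in WT and at 10021, 8469 and 5167 in POLDIP2 KO. The highest and the lowest of the 6 libraries were both POLDIP2 KO, so the WT range lay inside the POLDIP2 KO range. The means were 8273 ± 733 and 7886 ± 2479 (SD, n = 3), with a log2 fold change of -0.12 (SE 0.239, 95% interval -0.68 to 0.45; limma, adjusted p = 0.9998).

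MT1E, a second metallothionein with a strong basal level here, had 1991, 2234 and 1940 normalised counts in WT and 2559, 2270 and 1706 in POLDIP2 KO. The order was that of MT2A in POLDIP2 KO, with replicate 1 highest and replicate 3 lowest. The log2 fold change was 0.07 (SE 0.165, 95% interval -0.32 to 0.46, adjusted p = 0.9998), an interval that stayed within 1.5-fold of no change.

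MT1X lies at the far end of the metallothionein cluster. Its values were 228, 147 and 113 normalised counts in WT and 246, 146 and 100.3 in POLDIP2 KO. Each POLDIP2 KO library was close to the WT library with the same replicate number, and the replicates differed from each other far more than the lines did. The means were 163 ± 58.9 and 164 ± 74.6 (SD, n = 3), and the log2 fold change was -0.02 (SE 0.398, 95% interval -0.96 to 0.92, adjusted p = 0.9998).

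MT1F was the metallothionein with the largest difference between the lines. It was measured at 128, 73.2 and 39.7 normalised counts in WT and at 41.8, 19.5 and 15.9 in POLDIP2 KO, which correspond to 136, 73 and 38 recovered reads against 34, 24 and 16. The groups overlapped only in that POLDIP2 KO replicate 1 was just above WT replicate 3. The means were 80.5 ± 44.8 and 25.8 ± 14.0 (SD, n = 3), a ratio of 0.320.

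The lower level of MT1F did not pass the test across all genes. Its log2 fold change was -1.57 (SE 0.551, 95% interval -2.88 to -0.27; limma, unadjusted p = 0.0245, adjusted p = 0.615), and 3.47% of all tested genes were lower at an unadjusted p of 0.05. The exact two-sided permutation test of 3 against 3 libraries gave p = 0.2, where 0.1 is the smallest it can give. Within the pairs of libraries with the same replicate number, log2(normalised count + 1) of MT1F was lower in POLDIP2 KO by differences of -1.60, -1.85 and -1.27. Blocking by replicate number narrowed the interval to -2.34 to -0.80 (unadjusted p = 0.0030, adjusted p = 0.142), and 5.58% of all tested genes were lower at an unadjusted p of 0.05 in that fit, which called 0.204% of genes and 0 of the 9. Leaving out 1 library in turn left a log2 fold change of MT1F between -1.996 and -1.16.

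MT1M, a metallothionein of low level, was measured at 18.9, 21.1 and 9.40 normalised counts in WT and at 19.7, 9.77 and 4.96 in POLDIP2 KO. In recovered reads this is 20, 21 and 9 against 16, 12 and 5, so counting error alone is large. The log2 fold change was -0.59 (SE 0.637, 95% interval -2.10 to 0.91, adjusted p = 0.9998), so changes of over 1.5-fold in either direction lay within the interval. It ran from -1.05 without POLDIP2 KO replicate 1 to -0.15 without POLDIP2 KO replicate 3.

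MT1G was detected at 4 recovered reads in WT replicate 3 and 1 in POLDIP2 KO replicate 3, and at 0 in the other 4 libraries. Only 1 of the 6 libraries was above the floor of 3 reads, so no fold change is given. Among the other metallothioneins, MT1B, MT1H, MT3 and MT4 were listed at 0 in all libraries. MT1A had 1 recovered read, in WT replicate 2. In all, 5 of 11 metallothionein genes passed the filter on low values.

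The 11 metallothionein genes summed to 11147, 11082 and 9539 normalised counts in WT and to 12888, 10913 and 6995 in POLDIP2 KO. The sum does not depend on how reads were divided among these 11 genes, though it does on their division from genes outside it with shared sequence, and it again had both its highest and its lowest value in POLDIP2 KO. The ratio of the means was 0.969, and it ran from 0.846 to 1.12 when 1 library was left out. MT2A made up 73.9% to 78.8% of the sum, MT1E 17.9% to 24.4%, MT1X 1.18% to 2.04% and MT1M 0.0710% to 0.190%. MT1F was 1.15%, 0.661% and 0.416% of the sum in WT and 0.325%, 0.179% and 0.227% in POLDIP2 KO. These shares of MT1F did not overlap between the lines, and neither did its ratio to MT1X, at 0.564, 0.497 and 0.352 in WT and 0.170, 0.134 and 0.158 in POLDIP2 KO; both measures were chosen after the values were seen and carry no test.

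The metallothionein genes lie together on chromosome 16 (GRCh38, GENCODE 44). MT2A is at chr16:56608584-56609497 and MT1X at chr16:56682470-56684196, both on the + strand, with MT1E, MT1M, MT1F and MT1G in this order between them. MT1F, at chr16:56657731-56660698, is on the + strand, and MT1G beside it, at chr16:56666730-56668065, is the only one of the 6 on the - strand. Per kb of mRNA the level went from 20632 ± 1828 for MT2A and 2755 ± 210.1 for MT1E to 41.3 ± 15.6 for MT1M in WT (SD, n = 3) and was 189 ± 105.5 for MT1F and 403 ± 146 for MT1X further along, so levels along the cluster had no single direction.

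The transcripts of these genes share stretches of sequence. Of the 31-base stretches of the MT1F transcript 13.9% also occur in a transcript of another gene, and for MT2A this is 31.5%, for MT1E 22.6%, for MT1M 39.7%, for MT1G 31.1% and for MT1X 54.0%. Of the stretches of 100 bases, the read length in the labels, 0 of 326 are shared for MT1F, and 0% for MT2A, MT1E, MT1M and MT1G. For MT1X 22.0% are shared, all with 1 unnamed gene, so the split of reads between them is uncertain. The pseudogene MT1L was measured at 58.6, 63.2 and 39.7 normalised counts in WT and 18.5, 10.6 and 102.3 in POLDIP2 KO (adjusted p = 0.9998), but every 31-base stretch of it occurs in another gene, and its level is uncertain. Of 7 further metallothionein-like genes in the table, which are annotated as pseudogenes except MT1HL1, only MT1L and MT1JP passed the filter, and neither was called.

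**Figure D3:**
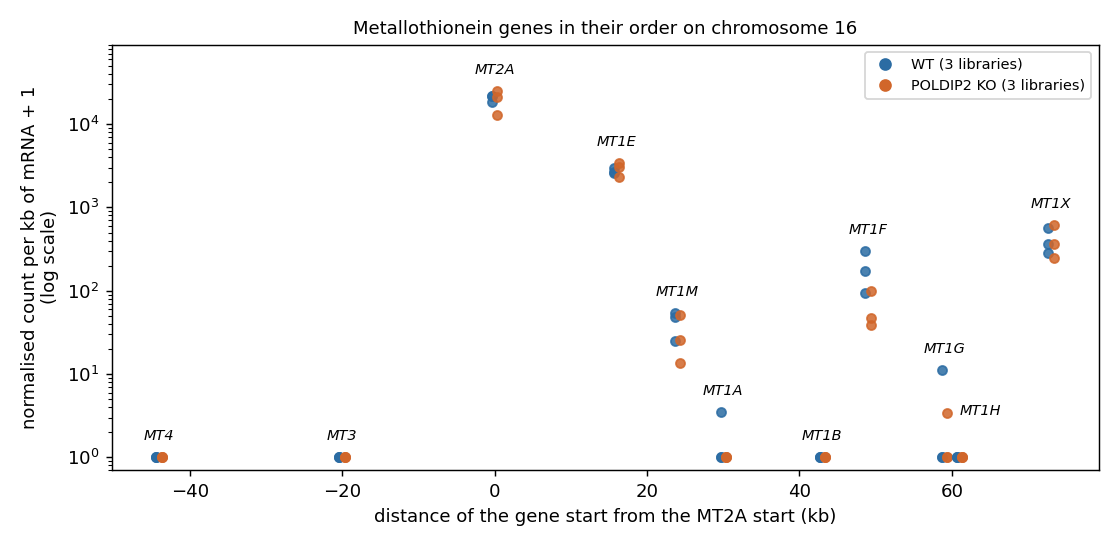
Level of 11 metallothionein genes against the distance of the gene start from the MT2A start in kb. The y axis is the normalised count per kb of mRNA plus 1 on a log scale, and each point is 1 of 3 WT (blue) or 3 POLDIP2 KO (orange) libraries; MT2A and MT1E are highest, and MT3, MT4, MT1B and MT1H are at 0 in all libraries.

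MTF1, the zinc sensor that drives metallothionein transcription, was measured at 1122, 1258 and 1251 normalised counts in WT and at 1089, 1438 and 692 in POLDIP2 KO. WT libraries were close together, and POLDIP2 KO replicates 2 and 3 were the highest and the lowest of all 6. The log2 fold change was -0.23 (SE 0.255, 95% interval -0.84 to 0.37, adjusted p = 0.9998), and it was 0.05 without POLDIP2 KO replicate 3. That library also held the lowest MT2A, MT1E, MT1X, MT1F and MT1M values of the 6. MT2A, MT1E and MT1X were highest in POLDIP2 KO replicate 1, MT1F in WT replicate 1 and MT1M in WT replicate 2. MTF1 itself was highest in POLDIP2 KO replicate 2, and whether it moved with the metallothioneins was not tested. MTF2, the other gene of the list of metal-responsive transcription, encodes a Polycomb-like chromatin protein; its log2 fold change was -0.09.

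SLC30A1 (ZnT1), at chr1:211571568-211579161 on the - strand, is the exporter at the plasma membrane and the classic target of MTF1 beside the metallothioneins. It had 1907, 2481 and 1831 normalised counts in WT and 1633, 2177 and 1717 in POLDIP2 KO. Replicate 2 was highest in both lines, and SLC30A1 was lower in POLDIP2 KO in each of the 3 pairs with the same number, by log2 differences of -0.22, -0.19 and -0.09. The log2 fold change was -0.17 (SE 0.167, 95% interval -0.56 to 0.23, adjusted p = 0.9998), while in the blocked fit the interval was -0.39 to 0.05 (adjusted p = 0.577). For SLC30A1 the log2 fold change was -0.033 without WT replicate 2 and -0.295 without POLDIP2 KO replicate 2. MT1F and SLC30A1 were the 2 of 9 genes lower in 3 of 3 pairs, as 15.7% of all tested genes were, and 0 of 9 were higher in 3 of 3, as 17.0% were.

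SLC39A10 (ZIP10), an importer at the plasma membrane on chromosome 2 (chr2:195575977-195737702, + strand), was measured at 2282, 2432 and 2565 normalised counts in WT and at 1979, 3338 and 3549 in POLDIP2 KO. POLDIP2 KO replicate 1 was the lowest of the 6 libraries and the other two POLDIP2 KO libraries were the highest. The log2 fold change was 0.24 (SE 0.222, 95% interval -0.29 to 0.77, adjusted p = 0.9998). It was 0.51 without POLDIP2 KO replicate 1 (adjusted p = 0.283), the library that stood apart in COL1A2, 0.13 without POLDIP2 KO replicate 2 and 0.085 without POLDIP2 KO replicate 3.

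SLC39A14 (ZIP14), an importer of zinc, manganese and iron on chromosome 8 (chr8:22367278-22434129, + strand), had 5589, 7571 and 6839 normalised counts in WT and 6269, 7440 and 6739 in POLDIP2 KO. In both lines replicate 1 was lowest and replicate 2 highest. The log2 fold change was 0.04 (SE 0.139, 95% interval -0.29 to 0.37, adjusted p = 0.9998), the narrowest interval among the 9 genes.

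Per kb of mRNA, the order of the 10 genes in WT was MT2A (20632 ± 1828), MT1E (2755 ± 210.1), SLC39A14 (1430 ± 215), SLC39A10 (465 ± 27.1), MT1X (403 ± 146), SLC30A1 (352 ± 60.3), MT1F (189 ± 105.5), MTF1 (153 ± 9.63), MT1M (41.3 ± 15.6) and MT1G. The first 3 steps of this order held without overlap of the WT libraries. Among the next genes, MT1X overlapped both SLC39A10 and SLC30A1, its neighbours in the order, and MT1F overlapped MTF1. In POLDIP2 KO the order was the same except that MT1F, at 60.6 ± 33.0, stood below MTF1, at 135 ± 47.0, with MT1F at 98.4 in its highest library and MTF1 at 87.2 in its lowest.

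**Figure D4:**
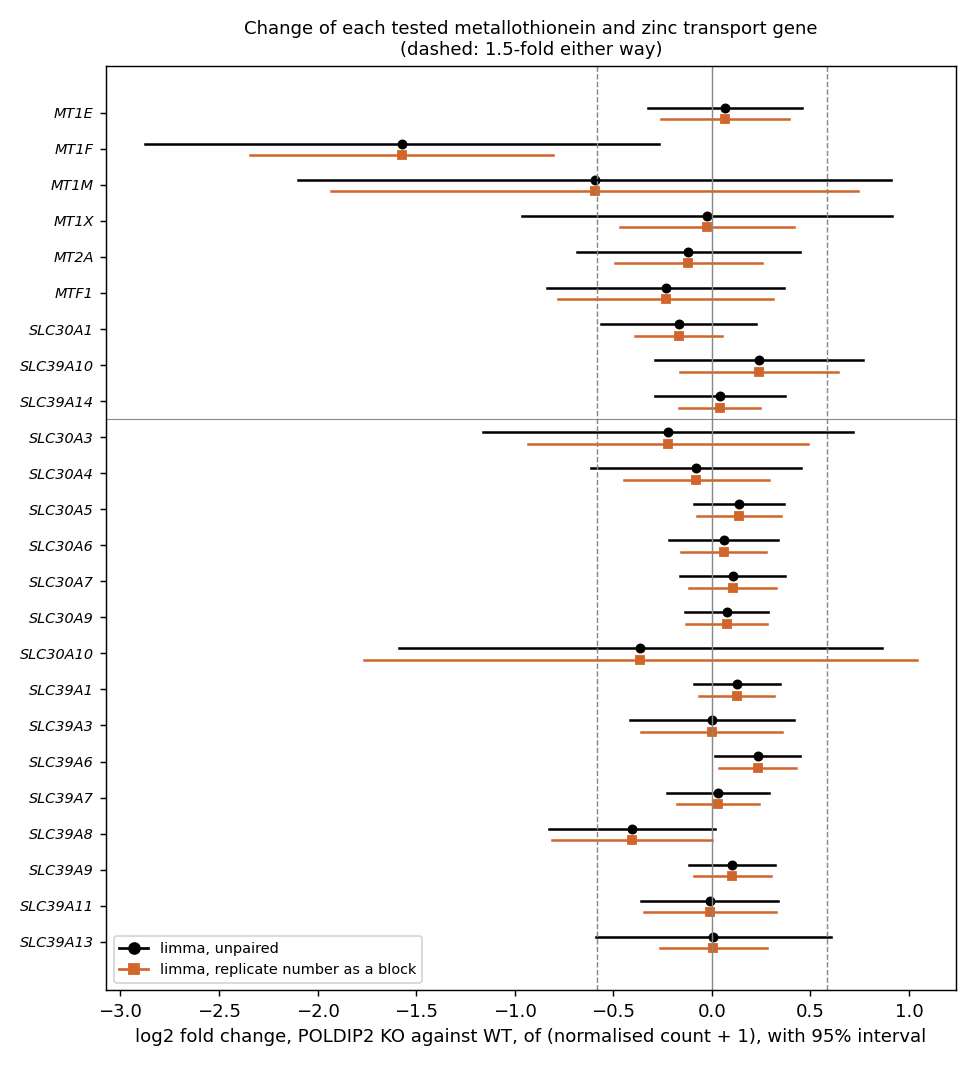
Log2 fold change of (normalised count + 1), POLDIP2 KO against WT, on the x axis with its 95% interval, for the 9 tested genes (above the line) and the other tested zinc transporters (below it); circles are the unpaired limma fit and squares the fit with the replicate number as a block. MT1F, at -1.57, is the one of the 9 whose unpaired interval excludes 0, and the intervals of MT1E, SLC30A1 and SLC39A14 lie within the dashed lines at 1.5-fold.

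Missing the threshold does not show that the genes were equal in the lines, so the intervals were read against a 1.5-fold change. They lay within it for MT1E, SLC30A1 and SLC39A14, 3 of 9, where 47.5% of all tested genes had such an interval. In the blocked fit MT1X and MT2A joined them, 5 of 9, against 57.1% of all tested genes. The intervals of MT1F, MT1M, MTF1 and SLC39A10 reached past 1.5-fold in both fits.

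The second question was how the genes varied by replicate number. For each gene the sum of squares of log2(normalised count + 1) over the 6 libraries was divided into the shares of the line, of the replicate number and of the rest. The replicate number held over 50% in 7 of 9 genes, with 98.5% for MT1X, 89.2% for SLC39A14, 81.4% for SLC30A1, 71.6% for MT2A, 69.7% for MT1M, 60.6% for MT1E and 55.6% for SLC39A10. The line held over 50% in 1 gene, MT1F, at 60.7% with 37.8% for the replicate number. Over all tested genes the median shares were 11% for the line and 52.0% for the replicate number. A large share of the number is thus common in these libraries. There are more replicate numbers than lines, so the number takes on average a larger share even where neither has an effect. Of all tested genes 0.667% had a share of the number at or above that of MT1X, and 46.3% at or above that of SLC39A10.

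The metallothioneins and the transporters did not share 1 order of replicates. MT1X and MT1F were highest in replicate 1 and lowest in replicate 3 in both lines, and MT2A was too. MT1E and MT1M were lowest in replicate 3 in both lines, but highest in replicate 2 in WT and in replicate 1 in POLDIP2 KO. SLC30A1 and SLC39A14 were highest in replicate 2 in both lines. The labels do not say what libraries with the same number share, and what the number stands for was not tested.

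**Figure D5:**
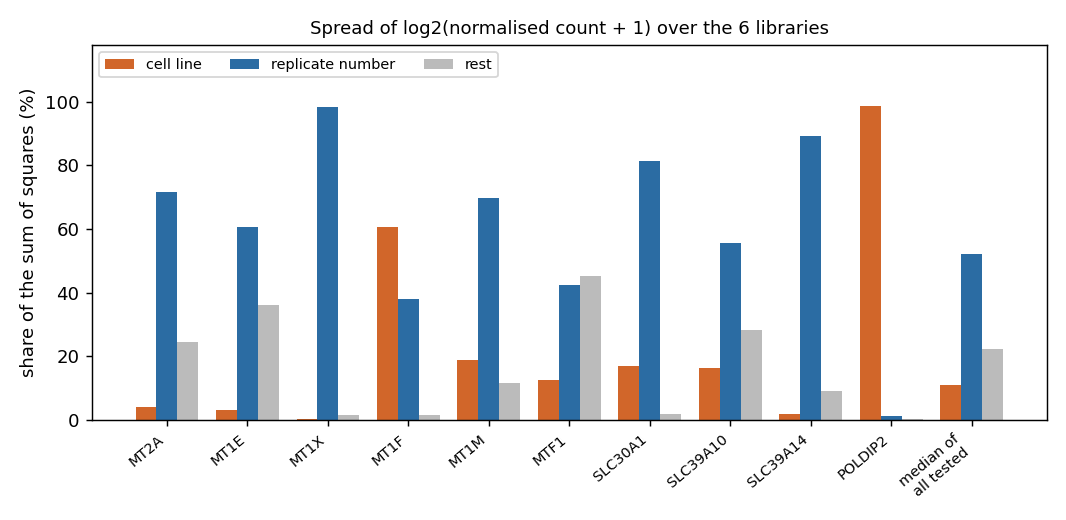
Share in percent (y axis) of the sum of squares of log2(normalised count + 1) over 6 libraries that lies with the cell line (orange), the replicate number (blue) and the rest (grey), for the 9 tested genes, POLDIP2 and the median of all tested genes. The replicate number is the largest share for 7 of the 9, at 98.5% for MT1X, and the line is the largest for MT1F at 60.7% and for POLDIP2 at 98.5%.

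Other exporters were taken from the SLC30 family. Of its 10 genes 8 passed the filter and 0 were called, with 0 past an unadjusted p of 0.05, a median log2 fold change of -0.01 and a range of -0.36 to 0.14. SLC30A5, which with SLC30A6 loads zinc into the secretory pathway, was measured at 2120, 1967 and 2137 normalised counts in WT and at 2243, 2198 and 2405 in POLDIP2 KO. Its groups did not overlap, and its log2 fold change was 0.14 (95% interval -0.09 to 0.37, adjusted p = 0.9998), and SLC30A9, at 0.08, was the other exporter without overlap, 2 of 8 against 10.9% of all tested genes. SLC30A5, SLC30A6, SLC30A7 and SLC30A9 were higher in POLDIP2 KO in 3 of 3 pairs, 4 of 8 exporters against 17.0% of all tested genes. SLC30A1 and SLC30A10 were lower in 3 of 3, 2 of 8 against 15.7%. In the pair of replicate 2 the log2 difference was only 0.009 for SLC30A9 and -0.002 for SLC30A10. SLC30A10 held only 6 to 16 recovered reads in a library. In the blocked limma fit the lowest adjusted p of the 8 was 0.577. Of 10 tested SLC39 importers 3 were higher and 1 was lower in 3 of 3 pairs.

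Of the 14 SLC39 importers 10 passed the filter and 0 were called, with a median log2 fold change of 0.04 and a range of -0.40 to 0.24. SLC39A6 (ZIP6), which forms a complex with SLC39A10, was measured at 3159, 3318 and 3122 normalised counts in WT and at 3675, 3953 and 3652 in POLDIP2 KO. All 3 POLDIP2 KO libraries lay above all 3 WT libraries, and the log2 fold change was 0.23 (SE 0.091, 95% interval 0.02 to 0.45, adjusted p = 0.714, and 0.357 in the blocked fit). By limma it was the 1 importer of 10 past an unadjusted p of 0.05, against 6.48% of all tested genes.

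SLC39A8 (ZIP8), the closest relative of SLC39A14 and likewise a carrier of zinc and manganese, had 519, 571 and 752 normalised counts in WT and 431, 507 and 439 in POLDIP2 KO. Every POLDIP2 KO library was below every WT library, with a log2 fold change of -0.40 (95% interval -0.82 to 0.02, adjusted p = 0.802). Per kb of mRNA SLC39A1, the general importer at the plasma membrane, was highest of the family with a mean of 3684 over the 6 libraries, and its log2 fold change was 0.13 (95% interval -0.09 to 0.34). Its groups did not overlap either, with POLDIP2 KO higher, so this held for 3 of 10 importers, against 10.9% of all tested genes.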

How the data were processed

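RNA of 3 WT and 3 POLDIP2 KO samples of ARPE-19 was analysed from a table that the authors deposited, which holds normalised counts. This signal was made by the authors from stranded mRNA libraries with Salmon 1.8 and tximport on GRCh38 and divided by size factors of DESeq2 1.34.0, as the study's methods and the submitters' processing notes give it. The annotation release is not given in the sources used here. Similar paralogs share reads, which Salmon divides by estimate. Symbols for 34152 of 37902 genes, positions and mRNA lengths (canonical transcript) came from GENCODE 44. Recovered reads are values divided by the smallest value above 0 of the column. In 2 columns that step lies within 1% of 1, so no count model was run. Depth was 31532797 to 45795509 recovered reads, and reads carried no molecular identifiers, so the floor of 3 reads covers counting error only.

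Limma 3.58.1 in R 4.3.3 (lmFit, eBayes with trend, prior degrees of freedom 3.02) was fitted to log2(normalised count + 1) of genes whose mean reached 10, with Benjamini-Hochberg adjustment over 14684 genes. Fold changes are on this scale, which understates those of low genes. Calls needed an adjusted p under 0.05 and a fold change over 1.5. Beside it stood the exact two-sided permutation test. P-values measure the spread between these samples, labelled as biological replicates. Values centred within each line correlated across 14684 genes at 0.315, 0.137 and 0.129 for the same replicate number and at -0.259 to 0.147 otherwise. All 3 pairs were above 0.1, so the number was taken to pair the samples, from the data rather than the labels, and used as a block in an alternative. WT replicate 3 with POLDIP2 KO replicate 2, at 0.147, passed this limit too, so the limit does not settle the pairing of replicates 2 and 3. Alternatives were a pseudocount of 0.5 or 5, a minimum mean of 50 or none, quantile normalisation, recentring of libraries, robust eBayes, eBayes with no trend, and leaving out each library. Leaving out replicate 1 of both lines, and each library from the metallothionein sum, was chosen after seeing the data. The limma steps were tested on simulated data without an effect of the replicate number. That run checked the steps and not how well the fit suits these libraries. All 6 columns were used, so 0 were left out.

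The 10 genes and the gene lists were chosen with earlier results of these data known, so lists are described by counts without a test. Genes named are the 10, POLDIP2, genes of the lists (metallothioneins and pseudogenes, SLC30, SLC39, metal-responsive transcription, copper, iron, glucocorticoid response, cell type markers) and the 5 other tested genes with the highest Pearson correlation, over 6 libraries, with the mean standardised log2 value of the 5 tested metallothioneins. Promoter windows came from a RefSeq table, in which 27 of 36 genes searched had an entry. Python 3.11.15, pandas 2.3.3, numpy 2.4.6, scipy 1.17.1 and matplotlib 3.10.9 were used.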

Additional observations from a re-analysis of the deposited data

How the results depend on the processing

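By limma, 0 of the 10 genes and 0 of the metallothionein, zinc, copper, iron and glucocorticoid lists were called under any alternative. Past an unadjusted p of 0.05 were 2 to 6 genes of these lists. There were 4 in the main fit, where 951 of 14684 genes (6.48%) were past it. There were 6 in the blocked fit, where 1625 of 14684 were. The filter passed 5 metallothioneins, 2 pseudogenes, 8 exporters and 10 importers. It also passed 2 genes of metal-responsive transcription, 8 of copper, 10 of iron and 7 of glucocorticoid response. Of 143 log2 fold changes of the tested genes over the alternatives, 11 changed sign. MT1X was 0.015 with quantile normalisation and ran from -0.36 to 0.28 with 1 library left out. With 1 library left out, MT1E ran from -0.060 to 0.23, SLC39A14 from -0.082 to 0.14, MT2A from -0.32 to 0.16, and MTF1 from -0.48 to 0.050. Without replicate 1 of both lines, MT1E was -0.081 and SLC39A14 -0.023. MT1F stayed below 0 throughout: from -1.59 to -1.43 with all libraries (adjusted p from 0.142 to 0.736), from -1.996 to -1.16 with 1 library left out (0.438 to 0.9996), and at -1.56 (0.566) without replicate 1 of both lines.

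Over all genes 25 were called by limma, 16 with a mean of at least 50, which tests fewer genes, and 5 without replicate 1 of both lines. With the replicate number as a block 30 were called, 17 higher and 13 lower, and 0 of the 9 genes tested here; the block changed no call among them. With 1 library left out 0 to 10 were called: 10 without WT replicate 1 or POLDIP2 KO replicate 1, and 0 without any of the other 4, when 693 to 903 genes were past an unadjusted p of 0.05. The summed metallothionein ratio ran from 0.846 to 1.12. The cause was not tested. Tests with edgeR and DESeq2 were not run, because the step lay within 1% of 1 in 2 columns. Divided by their steps, the values of these columns lay within 8.51e-05 (WT replicate 2) and 0.000221 (POLDIP2 KO replicate 3) of whole numbers. Depth limits MT1M and MT1G, which held at most 21 and 4 recovered reads in a library.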

Other observations

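Copper binds metallothioneins as well. All 8 genes of the copper list passed the filter and 0 were called by limma, with a median log2 fold change of -0.07. By limma 1 of 8 was past an unadjusted p of 0.05, against 6.48% of all tested genes. ATP7B, a copper-exporting pump, was measured at 393, 224 and 211 normalised counts in WT and at 208, 121 and 143 in POLDIP2 KO. Every POLDIP2 KO library was below every WT library, with a log2 fold change of -0.78 (95% interval -1.54 to -0.03, adjusted p = 0.746, and 0.171 when blocked by replicate number). The copper importer SLC31A1 (-0.10) and the mitochondrial copper chaperone COX17 (-0.15) were also lower without overlap, 3 of 8 copper genes against 10.9% of all tested genes without overlap in either direction, and the related pump ATP7A stood at 0.20 with overlapping groups.

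Of the 10 genes of the iron list all passed the filter and 0 were called, with a median log2 fold change of 0.11. By limma 1 of 10 was past an unadjusted p of 0.05, against 6.48% of all tested genes. STEAP3 is a reductase that acts on iron in endosomes. It was measured at 3786, 3679 and 4896 normalised counts in WT and at 5841, 5747 and 6408 in POLDIP2 KO. Its groups did not overlap, and the log2 fold change was 0.55 (SE 0.135, 95% interval 0.23 to 0.87, adjusted p = 0.291, and 0.105 with the block). The ferritin chains, which store iron, varied mostly by replicate number. FTL was at 33454, 102720 and 164960 normalised counts in WT and 43025, 103570 and 144580 in POLDIP2 KO, and FTH1 at 68139, 167200 and 192170 against 90440, 170450 and 199430. Both were lowest in replicate 1 of each line, where MT1X and MT1F were highest, and the replicate number held 98.1% of the sum of squares of FTL and 95.9% of that of FTH1.

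Glucocorticoids are known to raise MT2A and MT1X, and of 8 genes that respond to them 7 passed the filter and 0 were called (0 past an unadjusted p of 0.05), with a median log2 fold change of 0.18. SGK1, a kinase induced by glucocorticoids and serum, was at 2528, 787 and 682 normalised counts in WT and at 2048, 576 and 408 in POLDIP2 KO. It was highest in replicate 1 of each line, like MT1X, with 92.4% of its sum of squares under the replicate number. FKBP5, another target, was at 861, 757 and 862 in WT and 758, 1040 and 842 in POLDIP2 KO, with no such order. KLF9 was also highest in replicate 1 of each line, while TSC22D3, PER1, DUSP1 and NR3C1 were not. TSC22D3 had the largest log2 fold change of the 7, at 0.83, with overlapping groups (limma, adjusted p = 0.9998).

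The genes whose pattern was most like that of the tested metallothioneins were UCP2 (r = 0.999), GTF2IRD2 (0.994), ZNF764 (0.992), DLGAP4 (0.991) and TNFRSF12A (0.990). The correlations are over 6 libraries, in which each replicate number occurs in both lines, and were the highest of all tested genes by construction. UCP2, a carrier of the inner mitochondrial membrane, was at 83.1, 68.2 and 15.7 normalised counts in WT and at 140.2, 26.9 and 2.98 in POLDIP2 KO. Its highest and its lowest library were both POLDIP2 KO, as for MT2A. The lowest UCP2 value, in POLDIP2 KO replicate 3, lay at the floor of 3 reads, unlike that of MT2A.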
